A study of Mus musculus with 6 samples.

Results

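The core circadian clock was followed in stem cells sorted from mouse skeletal muscle (MuSCs) and sequenced without culture, after inactivation of Taf4a. The genes were taken by symbol from the deposited expression table and comprise the activator arm (Arntl and Clock), the repressor arm (Per1, Per2, Per3, Cry1, Cry2, Nr1d1 and Nr1d2) and the output gene Dbp, 10 of the 22081 genes in the table. All 10 were found and all 10 passed the filter on low values. RNA-seq was available for 6 libraries, 3 with the genotype label control (WT in the sample titles) and 3 with the label Taf4asKO (Taf4a-KO in the titles). All mice were on a C57BL/6 background and carried floxed Taf4a alleles in which loxP sites flank exons 11 and 12. Taf4asKO mice also carried the tamoxifen-inducible Pax7CreERT allele, which is active in cells that express Pax7, and received tamoxifen. Controls were littermates that, according to the study's methods, either lacked Cre or carried it, with tamoxifen named for the Taf4asKO group. Animals were adults of both sexes kept under a regular light and dark cycle. The hour of day at which each muscle was taken is not given in the sources used here.

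The circadian clock is a transcriptional feedback loop that runs in nearly every cell, muscle stem cells included. A dimer of CLOCK and BMAL1 (the product of Arntl) binds E-box sequences and switches on the Per and Cry genes, whose proteins enter the nucleus and shut the dimer off. The same dimer drives Nr1d1 and Nr1d2, encoding REV-ERB repressors that act back on Arntl through ROR elements, and Dbp, a factor that acts on D-boxes. Transcripts of Arntl therefore peak at the opposite time of day to those of Dbp, Nr1d1 and the Per genes in most tissues. Per1 is in addition induced by cAMP signalling and by glucocorticoids.

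The promoters of 9 of the 10 genes were found in the RefSeq table used here (GRCm38.p6, the build that corresponds to mm10). Per2 had no entry. The 250 bases before the annotated start were searched on both strands for the clock motifs and for the CCAAT box, the site of NF-Y, because the study examined a complex of TAF4A with NF-Y. The motifs were the E-box CACGTG, the D-box TTANGTAA, the ROR element core TAGGTCA, the cAMP response element TGACGTCA and CCAAT, with the general promoter motifs GC box GGGCGG and TATA box TATAAA beside them. The promoters that hold a clock motif, those of Per1, Per3 and Cry1, are shown with those of Arntl and Cry2, for their CCAAT boxes. Capitals mark the clock motifs and CCAAT, not GC or TATA boxes, and CCAAT on the other strand reads ATTGG.
Arntl, chr7:113207215-113207464, plus strand: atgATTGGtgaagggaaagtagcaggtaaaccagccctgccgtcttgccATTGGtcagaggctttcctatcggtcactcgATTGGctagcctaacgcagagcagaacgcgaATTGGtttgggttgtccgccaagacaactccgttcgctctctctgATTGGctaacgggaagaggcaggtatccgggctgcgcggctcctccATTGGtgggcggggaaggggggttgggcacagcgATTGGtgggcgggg
Per1, chr11:69098699-69098948, plus strand: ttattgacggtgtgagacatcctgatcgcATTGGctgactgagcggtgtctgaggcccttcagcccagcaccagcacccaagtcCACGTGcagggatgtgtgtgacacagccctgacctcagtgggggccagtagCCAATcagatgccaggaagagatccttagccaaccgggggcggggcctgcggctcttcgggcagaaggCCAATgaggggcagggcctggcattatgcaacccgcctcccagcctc
Per3, chr4:151044666-151044915, minus strand: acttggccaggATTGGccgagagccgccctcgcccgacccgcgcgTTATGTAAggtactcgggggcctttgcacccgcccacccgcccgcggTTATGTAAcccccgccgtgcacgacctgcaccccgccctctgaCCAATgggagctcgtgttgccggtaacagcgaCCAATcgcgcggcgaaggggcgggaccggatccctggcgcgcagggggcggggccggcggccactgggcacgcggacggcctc
Cry1, chr10:85185055-85185304, minus strand: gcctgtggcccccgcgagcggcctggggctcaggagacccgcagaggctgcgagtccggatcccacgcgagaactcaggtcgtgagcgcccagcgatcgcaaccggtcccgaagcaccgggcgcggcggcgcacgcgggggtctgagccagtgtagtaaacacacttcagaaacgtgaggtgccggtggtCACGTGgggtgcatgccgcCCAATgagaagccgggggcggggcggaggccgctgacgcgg
Cry2, chr2:92434070-92434319, minus strand: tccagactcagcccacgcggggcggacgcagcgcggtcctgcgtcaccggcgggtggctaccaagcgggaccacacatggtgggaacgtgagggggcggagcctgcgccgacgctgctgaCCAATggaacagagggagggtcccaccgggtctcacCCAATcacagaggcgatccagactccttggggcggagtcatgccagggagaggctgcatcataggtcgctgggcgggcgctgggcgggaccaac

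An E-box lay 166 bases before the first listed start of Per1 and 60 bases before that of Cry1, while 6.02% of all 32851 promoter windows of the same length held one. Per3 had D-boxes at 205 and 158 bases before its start, a motif present in 2.06% of windows. None of the 9 genes had the ROR element core (2.23% of windows) or the full cAMP response element (1.55%) in this window, which says nothing of sites elsewhere. CCAAT boxes were present in 7 of the 9 genes and 37.5% of all genes in the promoter table (9 of the 13 windows of these genes and 33.8% of all windows). GC boxes were present in 8 of the 9 genes and 35.4% of all genes, and TATA boxes in 0 of the 9 and 14.3% of all genes, so CCAAT boxes were not alone in being frequent here. Arntl held 7 copies, at 247, 201, 170, 139, 94, 48 and 14 bases before its start. Windows with at least 7 copies numbered 3 of 32851 and belonged to 2 genes, with both listed starts of Arntl among them. Cry2 held 2 copies, at 130 and 94 bases. Neither Clock nor Nr1d1 held a CCAAT box. These matches are descriptions of sequence, and binding was not measured in these libraries.

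The targeted gene was examined first. Normalized counts are reads per gene divided by a size factor of the library. Taf4, formerly Taf4a (mm10 chromosome 2, 179912152 to 179976646), stood at 613, 534 and 478 normalized counts in the 3 controls and at 631, 565 and 574 in the 3 Taf4asKO libraries. The log2 fold change of 0.13 (limma adjusted p 0.524) was no larger than differences among replicates. A gene total sums all exons, of which only exons 11 and 12 are deleted, so it does not check the labels, and Taf4asKO is used throughout for libraries that carry this label. Total normalized counts lay between 12338676 and 14551732 per library. The study's methods speak of biological replicates, but nothing in the labels says that libraries of a group came from separate animals, so p-values measure the spread between these libraries.

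The question was whether the clock genes change in MuSCs when Taf4a is inactivated. None of the 10 genes passed the threshold (limma, Benjamini-Hochberg adjusted p under 0.05 over all 18562 genes tested and a fold change of at least 1.3). Among all tested genes 12.6% passed. An unadjusted p under 0.05 was reached by 5 of the 10, namely Arntl, Clock, Per2, Cry2 and Nr1d2, compared with 28.8% of all tested genes, and limma-voom also called 0 of the 10. Same-numbered libraries of both groups deviated together, and a fit blocked on replicate number called 2 genes, Per2 lower and Cry2 higher, beside 18.1% of all tested genes (8.98% lower and 9.09% higher). In that fit 6 of the 10, the same 5 and Dbp, had an unadjusted p under 0.05, as did 33.4% of all tested genes. In bulk samples fewer cells of a type and less RNA per cell cannot be told apart.

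**Figure D1:**
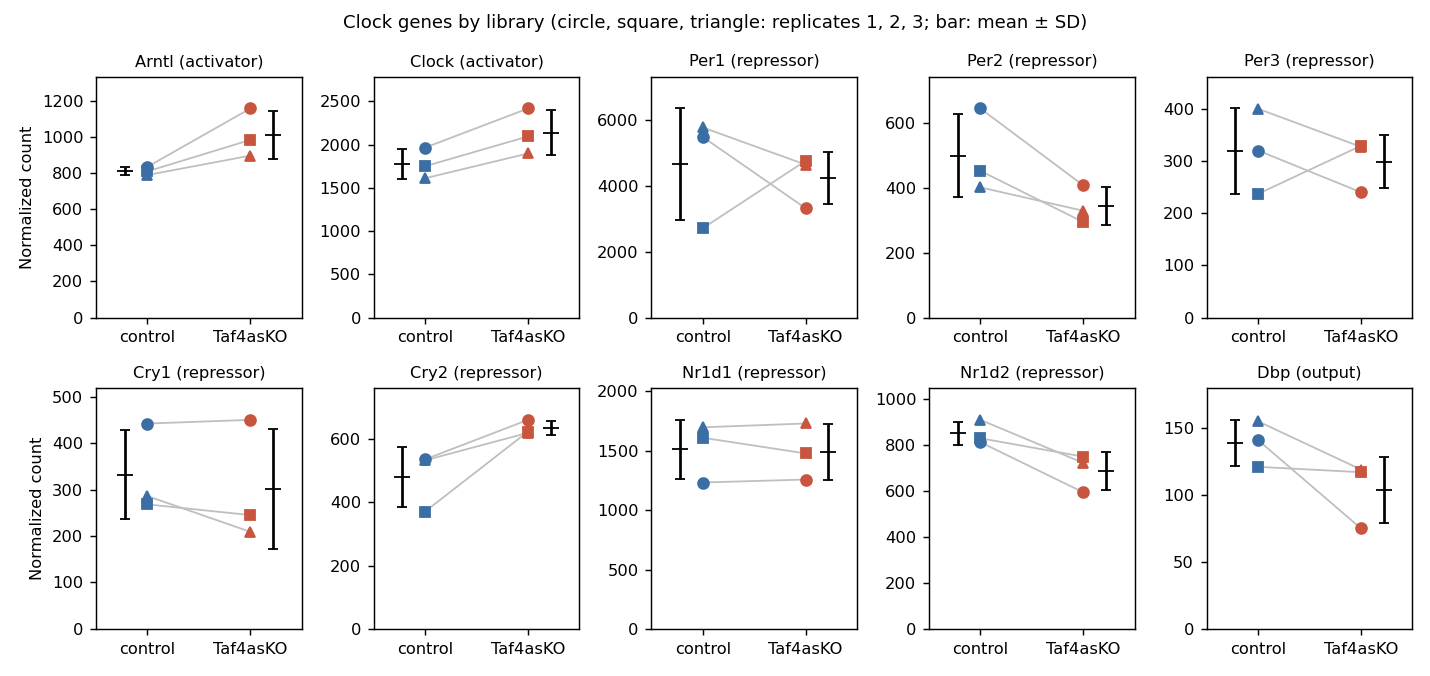
Normalized counts (y axis, from 0) of the 10 clock genes in control (blue) and Taf4asKO (red) libraries, with the mean and SD beside the points and grey lines joining libraries of the same replicate number. Arntl and Cry2 were higher and Nr1d2 and Dbp lower in every Taf4asKO library than in any control library, while Per1, Per3, Cry1 and Nr1d1 overlapped widely.

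In the activator arm, Arntl (ENSMUSG00000055116, mm10 chromosome 7, 113207465 to 113314126, plus strand) gave 834, 809 and 789 normalized counts for control replicates 1 to 3 and 1157, 983 and 896 for Taf4asKO replicates 1 to 3. The lowest of the latter lay above the highest control library. The means were 811 ± 22.5 and 1012 ± 133 (SD, n = 3), with a log2 fold change of 0.31 (SE 0.11, 95% interval 0.06 to 0.56, limma adjusted p 0.1003). With the replicate block its adjusted p was 0.0491, and it was not called because the fold change was below 1.3.

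Clock (ENSMUSG00000029238, chromosome 5, 76209868 to 76304792, minus strand), which encodes the partner of BMAL1, measured 1965, 1750 and 1611 normalized counts across the controls, compared with 2418, 2095 and 1898 across the Taf4asKO libraries. The groups overlapped, since control replicate 1 exceeded Taf4asKO replicate 3. Its log2 fold change was 0.265 (SE 0.12, 95% interval 0.0039 to 0.53, limma adjusted p 0.168), and 0.17 without Taf4asKO replicate 1. Within each replicate number, both activator genes were higher in the Taf4asKO library, by 0.47, 0.28 and 0.18 on the log2 scale for Arntl and by 0.30, 0.26 and 0.24 for Clock (replicates 1, 2 and 3).

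In the repressor arm the calls made with the replicate block were in opposite directions, Per2 lower and Cry2 higher. Per2 (ENSMUSG00000055866, chromosome 1, 91415982 to 91459324, minus strand), a partner of the CRY proteins in the repressor complex, stood at 644, 452 and 401 normalized counts in the 3 controls and at 407, 294 and 329 in the 3 Taf4asKO libraries. The groups touched, as Taf4asKO replicate 1 lay just above control replicate 3. The means were 499 ± 128 and 343 ± 57.8 (SD, n = 3), with a log2 fold change of -0.52 (SE 0.19, 95% interval -0.94 to -0.11). The limma adjusted p was 0.0957 without and 0.0115 with the replicate block, which called it lower. By replicate number the differences were -0.66, -0.62 and -0.28. Control replicate 1 was high, and without it the log2 fold change was -0.32 (limma adjusted p 0.259).

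Cry2 (ENSMUSG00000068742, chromosome 2, 92403646 to 92434043, minus strand), encodes a cryptochrome that blocks the CLOCK and BMAL1 dimer. It gave 536, 371 and 533 normalized counts for control replicates 1 to 3 and 661, 624 and 620 for Taf4asKO replicates 1 to 3, with no overlap. The means were 480 ± 94.4 and 635 ± 22.6 (SD, n = 3), with a log2 fold change of 0.42 (SE 0.15, 95% interval 0.093 to 0.75). Its limma adjusted p was 0.0898 without and 0.0345 with the replicate block, which called it higher. Control replicate 2 was low, and without it the log2 fold change was 0.25 (limma adjusted p 0.0872).

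The paralogue Cry1 (ENSMUSG00000020038) measured 442, 268 and 286 normalized counts across the controls, compared with 450, 245 and 209 across the Taf4asKO libraries. Replicate 1 was the high library of each group, and the groups overlapped over nearly their whole range. The log2 fold change was -0.18 (95% interval -0.80 to 0.43, limma adjusted p 0.71). It was -0.51 without Taf4asKO replicate 1 and turned to 0.040 without control replicate 1 and to 0.037 without Taf4asKO replicate 3.

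Per1 (ENSMUSG00000020893), the acutely inducible Period gene, stood at 5497, 2716 and 5785 normalized counts in the 3 controls and at 3324, 4770 and 4652 in the 3 Taf4asKO libraries. Its differences by replicate number were -0.73, 0.81 and -0.31, so that replicate 2 opposed the others. The log2 fold change was -0.08 (95% interval -0.65 to 0.50, limma adjusted p 0.883), an interval that spans changes past 1.3-fold in either direction. Without control replicate 2 it was -0.43 (limma adjusted p 0.0866), and it turned positive without control replicate 1 (0.081), control replicate 3 (0.12) or Taf4asKO replicate 1 (0.092). Per3 (ENSMUSG00000028957) gave 320, 237 and 400 normalized counts for control replicates 1 to 3 and 240, 329 and 327 for Taf4asKO replicates 1 to 3, with a log2 fold change of -0.08 (95% interval -0.52 to 0.37, limma adjusted p 0.84) that ranged from -0.27 to 0.10 without 1 library. Control replicate 2 was the lowest library for Per1 and, of all 6, also for Per3 and Cry2. In that library the summed myofibre markers (Acta1, Ckm, Myh1, Myh2, Myh4, Tnnt3 and Mylpf) were the highest of all, 3842 normalized counts against 1234 to 2768 in the others, and their part in these values was not tested.

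The REV-ERB genes come next, and the difference between them was not tested. Nr1d1 (ENSMUSG00000020889) measured 1233, 1610 and 1698 normalized counts across the controls, compared with 1258, 1478 and 1730 across the Taf4asKO libraries. The groups had nearly the same range, and the log2 fold change was -0.02 (95% interval -0.35 to 0.31, limma adjusted p 0.943), which leaves out a change of 1.3-fold either way. It ranged from -0.16 to 0.093 without 1 library, with a positive sign without control replicate 2 or 3 or Taf4asKO replicate 1. Nr1d2 (ENSMUSG00000021775, chromosome 14, 18204054 to 18239127, minus strand) stood at 811, 828 and 908 normalized counts in the 3 controls and at 593, 748 and 721 in the 3 Taf4asKO libraries, with no overlap. Its means were 849 ± 51.8 and 687 ± 82.8 (SD, n = 3), with a log2 fold change of -0.31 (SE 0.12, 95% interval -0.57 to -0.05, limma adjusted p 0.111).

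Dbp (ENSMUSG00000059824, chromosome 7, 45705088 to 45710203, plus strand), the output gene, gave 141, 121 and 155 normalized counts for control replicates 1 to 3 and 75, 117 and 119 for Taf4asKO replicates 1 to 3. Taf4asKO replicate 1 stood below the rest, and replicates 2 and 3 lay just under the lowest control library. The log2 fold change was -0.44 (SE 0.21, 95% interval -0.91 to 0.029, limma adjusted p 0.1998). Without Taf4asKO replicate 1 it was -0.23. Reads of Dbp are uncertain where it shares 539 exon bases (18.0% of its exon length) with Sphk2 on the opposite strand, and the same holds for 263 bases (8.55%) that Nr1d1 shares with Thra and 295 bases (4.67%) that Cry2 shares with D930015M05Rik.

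**Figure D2:**
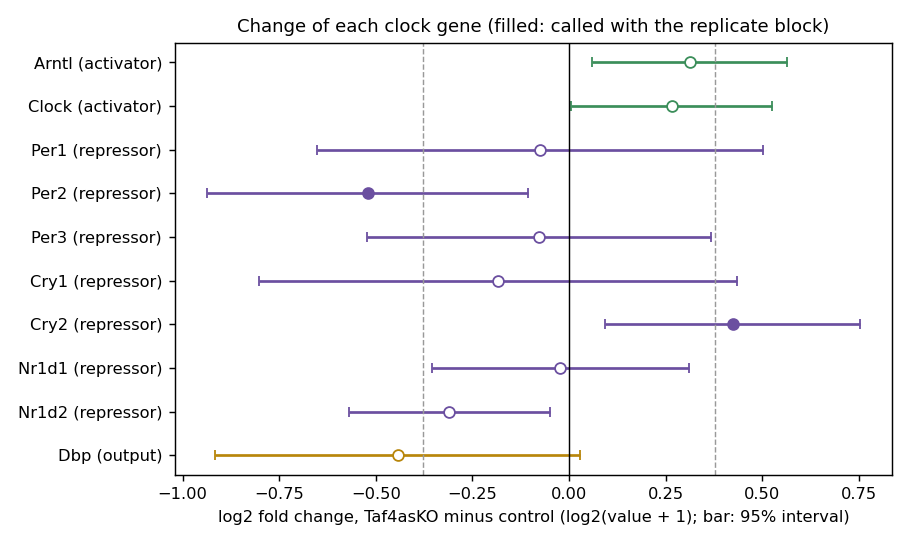
Log2 fold change (x axis, Taf4asKO minus control on log2(value + 1)) with its 95% interval for each clock gene, colored by arm. Dashed lines mark the 1.3-fold limit, and filled points are the 2 genes called with the replicate block, Per2 at -0.52 and Cry2 at 0.42.

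Libraries of the groups did not overlap for 4 of the 10 genes, Arntl and Cry2 higher and Nr1d2 and Dbp lower, compared with 33.0% of all tested genes (16.6% with Taf4asKO higher). All 3 differences between same-numbered libraries had 1 sign for 6 genes, where 50.7% of all tested genes showed this. These shares are near those of the table as a whole. The median log2 fold change was 0.29 over the 2 genes of the activator arm and -0.08 over the repressor arm. Over all tested genes this median was 0.0040, a signed value in which rises and falls cancel. Taken without sign, the median change over the same genes was 0.31, so the 0.29 of the activator arm was of ordinary size here.

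The same replicate number was highest in both groups for 7 of the 10 genes, compared with 38.2% of all tested genes. Replicate 1 was the highest library of each group for Arntl, Clock, Per2, Cry1 and Cry2, and replicate 3 for Nr1d1 and Dbp. Near ties were Cry2 in control (536 against 533 in replicate 3) and Dbp in the Taf4asKO libraries (119 against 117 in replicate 2). Cry1 was 442 and 450 in replicate 1 against 209 to 286 in the others, while Nr1d1 was lowest in replicate 1 of each group, 1233 and 1258 against 1478 to 1730. The labels do not say what libraries of the same number share.

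**Figure D3:**
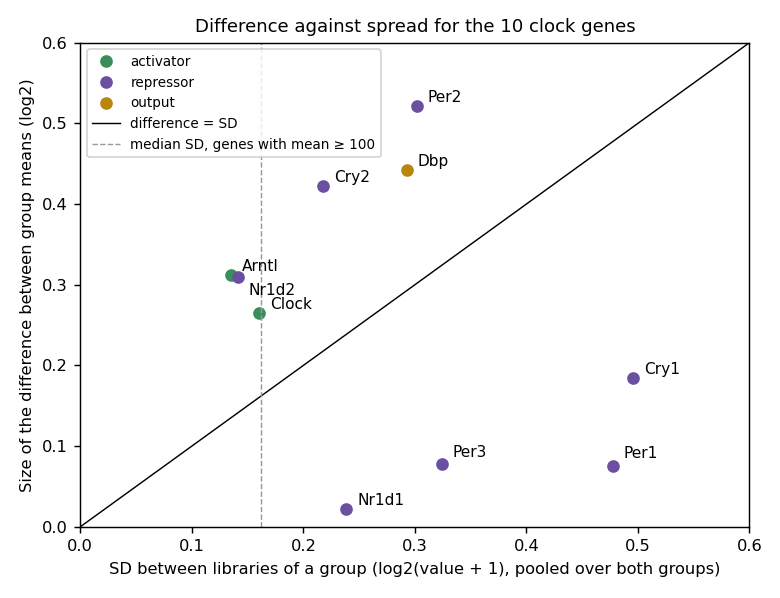
Size of the difference between group means (y axis, log2) against the SD between libraries within a group, pooled over both groups (x axis, log2), for the 10 clock genes. Per1, Per3, Cry1 and Nr1d1 lie below the line of equality, where the difference is smaller than the SD, and the other 6 lie above it.

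The clock genes varied unequally between libraries of 1 group. The pooled SD of log2 values was 0.50 for Cry1 and 0.48 for Per1, larger than in 96.5% and 96.0% of the 9313 genes whose mean reached 100, and 7 of the 10 genes exceeded the median of these genes, 0.16. The ratio of the highest to the lowest library was 2.13 for Per1 in control and 2.15 for Cry1 in the Taf4asKO libraries. Arntl (0.13), Nr1d2 (0.14) and Clock (0.16) varied least among the 10.

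Levels between genes were compared as normalized counts per kilobase of exon. In control, Per1 stood highest at 829 ± 301 (SD, n = 3), followed by Nr1d1 at 492 ± 80.3, and these neighbours overlapped because of Per1 in control replicate 2. Nr1d2 (157 ± 9.58), Clock (129 ± 13.0) and Arntl (108 ± 3.0) came next, with no overlap between these 3. Cry1 (99.4 ± 28.6) overlapped both Arntl and Clock through control replicate 1 (132). Per2 (85.2 ± 21.9) overlapped Arntl and Cry1, and Cry2 (75.9 ± 14.9) overlapped Cry1 and Per2. Dbp (46.4 ± 5.71) and Per3 (33.2 ± 8.48) were lowest and overlapped in 1 library of each. In the Taf4asKO libraries, Clock (156 ± 19.1), Arntl (135 ± 17.7) and Nr1d2 (127 ± 15.3) overlapped as neighbours, with Nr1d2 above Arntl in replicates 2 and 3. Cry2 (100.5 ± 3.58) and Cry1 (90.2 ± 38.9) overlapped through Cry1 in replicate 1 (135).

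Because transcripts of the Per genes, the REV-ERB genes and Dbp peak opposite to Arntl in most tissues, their difference was also taken in each library, as the mean log2(value + 1) of Per1, Per2, Per3, Nr1d1, Nr1d2 and Dbp minus that of Arntl. It was -0.18, -0.43 and -0.02 in control and -1.17, -0.65 and -0.46 in the Taf4asKO libraries. Cry1 and Cry2 were not part of it, and Cry2 was higher in every Taf4asKO library. All 3 Taf4asKO values were lower, the closest pair being control replicate 2 and Taf4asKO replicate 3. This is a description of 7 genes that were chosen with earlier results of these libraries known, and no test was made on it.

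Genes that followed the members most closely over the 6 libraries were Btbd7, Fam53c and Gpx4 for Arntl (Pearson r of log2 values 0.99 for each) and Patj, Cdk14 and Zfp512b for Dbp (0.97, 0.96 and 0.96). For Arntl, 70 of 10575 genes with a mean of at least 50 reached an r above 0.95, and for Dbp 9 did. The 6 libraries fall into 2 groups, and these values are descriptions with no test.

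Of 34 other listed genes of the clock pathway, all tested, 1 was called higher and 3 lower (5.93% and 6.71% of all tested genes). Bhlhe41, encoding the E-box repressor DEC2, rose from 190, 114 and 181 to 258, 257 and 281 normalized counts (log2 fold change 0.75 with an SE of 0.19, limma adjusted p 0.0322). Its call was lost when any Taf4asKO library was left out, with values of 0.70 to 0.77, and with upper-quartile scaling, scaling to the total or limma-voom (adjusted p 0.0526 to 0.065). The relative Bhlhe40 (DEC1) had a log2 fold change of 0.09 (limma adjusted p 0.741).

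Timeless, the mammalian gene named after the fly clock gene and best known for replication fork protection, fell from 293, 224 and 244 to 87, 89 and 79 normalized counts. Its log2 fold change was -1.56 (SE 0.16, limma adjusted p 0.000443), the largest change per SE in the pathway list, and it kept its call without any 1 library. Its partner Tipin had a log2 fold change of 0.14 (limma adjusted p 0.636). Usp2, a deubiquitinase known as a clock output, fell from 947, 985 and 889 to 761, 766 and 624 normalized counts (-0.40, SE 0.11, limma adjusted p 0.0449), a call lost without any 1 of the 6 libraries, and with scaling to the total, no filter or limma-voom (adjusted p 0.05003 to 0.054). Rorb, an activator at ROR elements, was low at 14, 23 and 14 normalized counts in control and fell to 3, 5 and 2 (-2.08, SE 0.45, limma adjusted p 0.0153), a call lost without Taf4asKO replicate 1 (-2.05) or 3 (-1.84). Its Taf4asKO mean of 3.33 lies below the filter on low values, a mean of 5 over all libraries, which it passed only through the controls, so it had to differ and its call is no support for the count of 3 genes lower.

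Rora, the ROR gene with the highest counts in these libraries, had a log2 fold change of 0.14 (limma adjusted p 0.371). The BMAL1 partner Npas2 measured 1161, 901 and 1272 normalized counts across the controls, compared with 1048, 1096 and 982 across the Taf4asKO libraries (-0.08, limma adjusted p 0.737). Arntl2, the paralogue of Arntl, was low at 55, 59 and 62 normalized counts in the controls and 38, 32 and 46 in the Taf4asKO libraries (-0.60, limma adjusted p 0.118), with no overlap. Tef, a relative of Dbp that acts on the same D-boxes, had 1323, 1271 and 1300 and then 1203, 1057 and 968 (-0.28, limma adjusted p 0.112), with no overlap between groups, and Hlf had a log2 fold change of 0.01. The opposing D-box repressor Nfil3 had -0.22 (limma adjusted p 0.638). None of the 6 listed kinases of PER and CRY was called, Csnk1d (0.16) and Csnk1e (-0.07) included.

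Because Per1 answers to glucocorticoids and cAMP, glucocorticoid-responsive genes and genes of cAMP signalling and the immediate early response were listed as inputs. Whether these inputs acted on Per1 was not tested. Of the 6 glucocorticoid genes 3 were called higher and 0 lower, and with the replicate block 5 were higher (5.93% and 9.09% of all tested genes were higher in these fits). Sgk1, a kinase gene, rose from 1199, 1094 and 1459 to 1784, 1786 and 2065 normalized counts (log2 fold change 0.59, SE 0.12, limma adjusted p 0.0123). Klf9, encoding a transcription factor, rose from 2579, 2138 and 2953 in control to 3334, 3717 and 4635 in Taf4asKO libraries (0.61, SE 0.15, limma adjusted p 0.0249). Fkbp5, encoding a cochaperone of the receptor, was 244, 199 and 271 in control and rose to 336, 377 and 776 (log2 fold change 0.96 with an SE of 0.27, limma adjusted p 0.0447). In each of these genes all Taf4asKO libraries exceeded all controls, and Taf4asKO replicate 3 was the highest.

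Tsc22d3 (0.82) and Zbtb16 (0.81) were called with the block only, with limma adjusted p of 0.0919 and 0.239 without it and 0.00804 and 0.0443 with it. The receptor gene Nr3c1 had a log2 fold change of 0.02 (limma adjusted p 0.94). Without Taf4asKO replicate 3 the calls of Sgk1 (0.52), Klf9 (0.47) and Fkbp5 (0.59) were lost. The call of Klf9 was also lost without Taf4asKO replicate 2 (0.63), and that of Fkbp5 without this library or any 1 control library (0.84 to 1.11). Scaling to the total and limma-voom also ended the calls of Klf9 (adjusted p 0.0533 and 0.054) and Fkbp5 (0.0609 and 0.0709), and the other scalings and robust eBayes that of Fkbp5 (0.0599 to 0.0811). Per1, which answers to the same hormone, was 4652 normalized counts in Taf4asKO replicate 3, within the range of the controls.

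**Figure D4:**
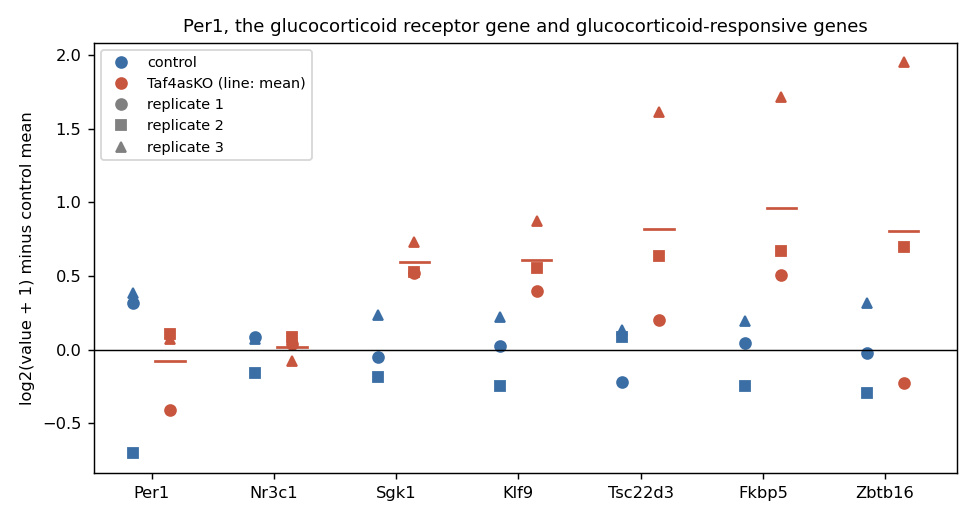
Log2(value + 1) minus the control mean (y axis) for Per1, the receptor gene Nr3c1 and 5 glucocorticoid-responsive genes, in control (blue) and Taf4asKO (red) libraries, with symbols for replicates 1 to 3 and a red line at the Taf4asKO mean. Taf4asKO replicate 3 is the highest library for all 5 responsive genes, and Per1 and Nr3c1 overlap between groups.

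Among 14 genes of cAMP signalling and the immediate early response, 5 were called higher and 0 lower, where 5.93% of all tested genes were called higher. Dusp1 rose from 4669, 3889 and 5132 to 9366, 8771 and 8326 normalized counts (log2 fold change 0.96, SE 0.12, limma adjusted p 0.000998). Fos (0.82), Junb (0.91), Ier2 (0.61) and Egr1 (0.64) were called as well, with limma adjusted p of 0.00399, 0.00191, 0.00299 and 0.0224. Egr1 lost its call without any 1 Taf4asKO library (0.57 to 0.68), and with upper-quartile scaling (limma adjusted p 0.0538) or scaling to the total (0.0982), while the other 4 kept theirs without any 1 library. With the replicate block Nr4a1 and Atf3 were called too, 7 of 14 in all, where 9.09% of all tested genes were called higher. The CREB coactivator genes Crtc1, Crtc2 and Crtc3 and Creb1 itself were not called. All genes called were immediate early genes, and whether cAMP signalling raised them was not tested. Sik1, encoding a kinase that restrains this pathway, had a log2 fold change of -0.45 (limma adjusted p 0.191).

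Markers of muscle stem cells and of other cells also differed between the groups. Muscle stem cell markers were present throughout, with a sum over 8 genes of 38984 to 41590 normalized counts in control and 39707 to 41607 in the Taf4asKO libraries, but 5 of the 8 were called. Among all tested genes 12.6% were called, and 18.1% with the block. Myf5 (-0.85), Itga7 (-0.43) and Cdh15 (-0.52) were lower and Vcam1 (0.74) and Sdc4 (0.88) higher. Pax7, the defining marker, was 12082 to 13007 in control and 10363 to 11164 in the Taf4asKO libraries (-0.21, limma adjusted p 0.161), with no overlap. The Schwann cell markers Sox10, Mbp and Pmp22 were called higher, with log2 fold changes of 1.34, 0.80 and 0.56 (limma adjusted p 0.0227, 0.0342 and 0.0142), and in each all Taf4asKO libraries exceeded all controls. Sox10, for example, stood at 185, 534 and 420 normalized counts in the 3 controls and at 734, 1016 and 900 in the 3 Taf4asKO libraries. S100b was not called (0.46, limma adjusted p 0.343). Endothelial markers summed to 907 to 1346 and 1472 to 1889 over 6 genes, with 0 called and 3 higher with the block. Fibro-adipogenic markers summed to 69990 to 113669 and 67231 to 101474 over 8 genes, mostly from collagens, with Gsn (0.77) called higher and Col3a1 (-1.58) lower. With the block Pdgfra (0.98), Dcn (0.77), Lum (1.24), Col1a1 (0.88) and Col1a2 (1.06) were called higher too, 6 in all. Ly6a (SCA1, used to deplete cells in the sort) was between 2 and 14 normalized counts in the 6 libraries. Of 7 immune markers Cd68 and Lyz2 were tested, with sums of 388 to 505 and 650 to 903. The other 5 were not found by symbol in the deposited expression table. Lyz2 (1.305) was called higher with the block only (limma adjusted p 0.0699 without and 0.00396 with it), Cd68 in neither fit, and none of the 7 myofibre markers was called. Their part in the values of the clock genes was not tested.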

How the data were processed

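Total RNA of sorted MuSCs was sequenced in 3 control and 3 Taf4asKO libraries. According to the submitters' processing notes and the study's methods, the authors trimmed reads with Trimmomatic 0.39, aligned them to mm10 with STAR 2.6.0c, removed multi-mapping reads, counted exonic reads with featureCounts 1.6.0 without reads shared by several genes, and normalized with DESeq2 1.14.1. Whether strand was used in counting is not given in the sources used here. The deposited values are a score, namely counts that the authors scaled with library size factors, in whole numbers, called normalized counts here. The rounding was inferred from the values, and the table had 0 value columns without a sample. A count model was therefore not used.

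Values of all genes whose mean reached 5 were compared on the log2(value + 1) scale using limma 3.58.1 (R 4.3.3, linear model without covariates, eBayes with a mean-variance trend, two-sided test), so fold changes of low genes are understated. Limits were an adjusted p under 0.05 and a fold of at least 1.3, after the study's methods. The test was checked on simulated data, where it missed changes at the fold limit. A gene that was not called may therefore still have changed. Within-group pairs of libraries differed beyond sampling noise, so each was used as its own sample. After subtraction of group means, control and Taf4asKO libraries that share a number correlated at 0.235, 0.126 and 0.15 for numbers 1, 2 and 3, which are from the sample titles, so a fit blocked on replicate number is given beside calls that it changes. Named genes were Taf4, the 10 clock genes, listed pathway and input genes that passed or that account for a list, marker lists, and for Arntl and Dbp the 3 genes most correlated with each. The members, lists and motifs were chosen with earlier results of these data known. Exon lengths and overlaps are from GENCODE M21 (mm10), and promoters from RefSeq. Figures were drawn with matplotlib 3.10.9. Values of some listed genes are not reported here.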

Additional observations from a re-analysis of the deposited data

How the results depend on the processing

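Fold changes of Taf4, the 10 clock genes and the 12 other listed genes called, and the counts of calls, were recomputed under other scalings, pseudocounts, filters, variance models and limits, with a replicate block, and without each library. Marker values, uncalled pathway genes, levels per kilobase, SDs and correlations were not. Of 180 recomputed fold changes of the 10 clock genes, 168 kept their direction and side of the threshold, 10 changed sign and 2 became calls. The 2 were Per2 (-0.52) and Cry2 (0.42) with the replicate block, which took the number of clock genes called from 0 to 2. Under every other alternative, the fits without 1 library included, it was 0 (range 0 to 0). Stricter limits could add no call. The other filters, the block, robust eBayes and the other limits left each fold change as it was, so no sign could turn there. Arntl, Clock, Nr1d2, Cry2, Per2 and Dbp kept their direction under all alternatives. Adjusted p over the alternatives ran from 0.0491 to 0.286 for Arntl, from 0.0115 to 0.305 for Per2 and from 0.0345 to 0.218 for Cry2. The sign changes were all in fits without 1 library, over which Per1 ranged from -0.43 to 0.12, Per3 from -0.27 to 0.10, Cry1 from -0.51 to 0.040 and Nr1d1 from -0.16 to 0.093. Taf4 ranged from 0.043 to 0.22 over all alternatives and was never called. The difference between the 6 genes and Arntl, -0.55 between group means, ranged from -0.70 to -0.35 without 1 library (chosen after the data were seen).

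Listed pathway and input genes called numbered 12 of 54, where 12.6% of all tested genes were called. The number was 7 with scaling to the total, 5 with an adjusted p under 0.01 and 2 at a fold of at least 2, and 5 to 13 without 1 library (7 without Taf4asKO replicate 2 and 5 without replicate 3). It was 16 with the replicate block. Over all tested genes the calls moved from 2347 to 980 and 956 without Taf4asKO replicates 2 and 3, to 3355 with the block and to 2227 with scaling to the total. The cause was not tested. For the 12 genes called, 54 recomputed values lost the call, 161 kept it and none changed sign. The block changed no other call of a clock gene. Groups of 3 libraries limit all intervals given.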
